A study of Mus musculus with 2 samples.

Results

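Border-associated macrophages (BAMs) were counted in libraries of sorted brain myeloid cells from PSAPP mice. A cell was taken as a BAM when its summed counts of Mrc1, Pf4, Ms4a7, Cd163 and Cbr2 reached 5, at least 2 of these 5 genes were detected, and fewer than 100 counts of Ttr were present. Ttr encodes transthyretin, the main transcript of the choroid plexus epithelium. The rule selected 104 of 42766 cells, of which 30 were from the vehicle (VEH) library and 74 from the lemborexant (LEM) library. They were compared with the 42055 other cells that held at least 1 count of P2ry12, a purinergic receptor of microglia, of which 18113 were VEH and 23942 LEM. The remaining 607 cells had no P2ry12 count and were left out of this comparison.

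PSAPP mice carry the APPswe and PS1δE9 transgenes, in VEH and LEM mice alike, and deposit amyloid plaques. The mice, males and females, were gavaged every day from 9 to 10 months of age, either with the vehicle or with LEM at 30 mg/kg/day. LEM blocks both orexin receptors and is used against insomnia. Cortex and hippocampus of 1 hemisphere from 5 mice per treatment were pooled into 1 library of 5′ single-cell RNA sequencing, after live CD45lo CD11b+ cells had been sorted as microglia. Every difference between LEM and VEH therefore rests on 1 library per treatment, has no replicate check and carries no test. The intervals given here are exact 95% intervals that cover counting error only, not differences between cells or between mice.

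BAMs live at the borders of the brain, in the meninges, around blood vessels and in the choroid plexus. They take up debris and solutes through scavenger and lectin receptors, and some present antigen on MHC class II molecules. They are usually described as CD45hi, whereas the sort kept CD45lo cells, so their share here is a share of what passed that gate and not of the tissue. Dissection of meninges and choroid plexus can also set it.

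Few BAMs carried the whole set of rule genes. Mrc1, the mannose receptor CD206, was detected in 102 of the 104 BAMs. Ms4a7, a membrane protein of macrophages, was detected in 88. Pf4, the chemokine platelet factor 4, was detected in 59. Cbr2, a carbonyl reductase, was found in 39 cells and Cd163, the receptor for haemoglobin bound to haptoglobin, in 32. Of the 104, 39 cells held 2 of the 5 genes, 33 held 3, 17 held 4 and 15 held all 5. The summed rule counts ran from 5 to 46 in VEH BAMs, with a median of 10, and from 5 to 83 in LEM BAMs, with a median of 13.

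These values chose the cells and are given as a description. Mrc1 stood at 587 CPM, the usual scaling of counts by their total, summed over the VEH BAMs and at 684 CPM over the LEM BAMs, against 2.11 and 1.49 CPM in the comparison cells. Ms4a7 stood at 508 and 499 CPM against 0.572 and 0.195 CPM. Pf4 stood at 299 and 248 CPM against 0.225 and 0.101 CPM. For Cd163, BAMs held 79.3 and 103 CPM, while VEH comparison cells had 0 counts and LEM comparison cells 0.0251 CPM. All 4 markers named for this cell type were thus far above the comparison cells in both libraries. Mrc1 was detected in 96.7% of VEH and 98.6% of LEM BAMs as deposited, and in 53.6% and 72.6% after each cell had been thinned to 2000 counts, which 2 VEH BAMs and 1 LEM BAM did not reach. In comparison cells the deposited Mrc1 shares were 1.19% and 0.890%, and in droplets with at least 100 Ttr counts, which should lack the gene, they were 0 of 49 (exact upper limit 7.25%) and 0.699% of 143.

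At the limit of the rule, 8 BAMs held a sum of exactly 5 (2 VEH, 6 LEM), and 12 cells with at least 2 of the genes stopped at 4 (5 VEH, 7 LEM). Another 8 cells reached 5 counts through 1 gene alone, 7 of them through Ms4a7 and 1 through Pf4, and 7 of these 8 were VEH cells. The Ttr limit removed 0 cells that met the other conditions, and all 104 BAMs had 0 Ttr counts.

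BAMs were deeper than the rest. The median BAM held 9348 counts in VEH and 8168 in LEM, whereas comparison cells held 6005 and 6072. Together the BAMs gave 0.239% of the counts of the VEH library and 0.399% of those of the LEM library. For Scrublet, cells above the 90th percentile of each library's scores were called, which fixed the share called over all cells in advance. This gave 5 of the 104 BAMs (4.81%) and 9.99% of comparison cells, which are not measured doublet rates. However, 27 BAMs (25.96%, 17.9 to 35.5) had Xist counts together with counts of Y-linked genes, which can occur when RNA of a female and a male mouse meets in 1 droplet, against 6.45% of comparison cells. Among cells with at least 8000 counts the shares were 24 of 57 BAMs (42.1%, 29.1 to 55.9) and 19.6% of comparison cells (18.8 to 20.4), so the gap was also present at greater depth. Their part in the results was not tested, and several values without them are given with the results.

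Microglial transcripts divided the BAMs. P2ry12 was absent from 17 of them, at 1 to 4 counts in 26 and at 5 or more in 61 (58.7%, 48.6 to 68.2). P2ry12 was also counted in droplets with at least 100 Ttr counts, whose cell should lack it, in 73.5% of 49 VEH and 67.1% of 143 LEM droplets, against 80% of VEH and 85.1% of LEM BAMs. Their median P2ry12 count was 24 in VEH and 14 in LEM, against 15 and 9 in BAMs, at median depths of 9338 and 8161 counts. A P2ry12 count of this size thus also occurred in droplets rich in Ttr, and whether these held a microglial cell too was not tested. Without the 27 cells with counts of both sexes, 36 of 77 (46.8%, 35.3 to 58.5) had 5 or more. The P2ry12-rich cells were deeper, with a median of 11850 counts against 5128 for 1 to 4 counts and 4302 for none. They also held 25 of the 27 cells with genes of both sexes and all 5 called doublets.

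**Figure D1:**
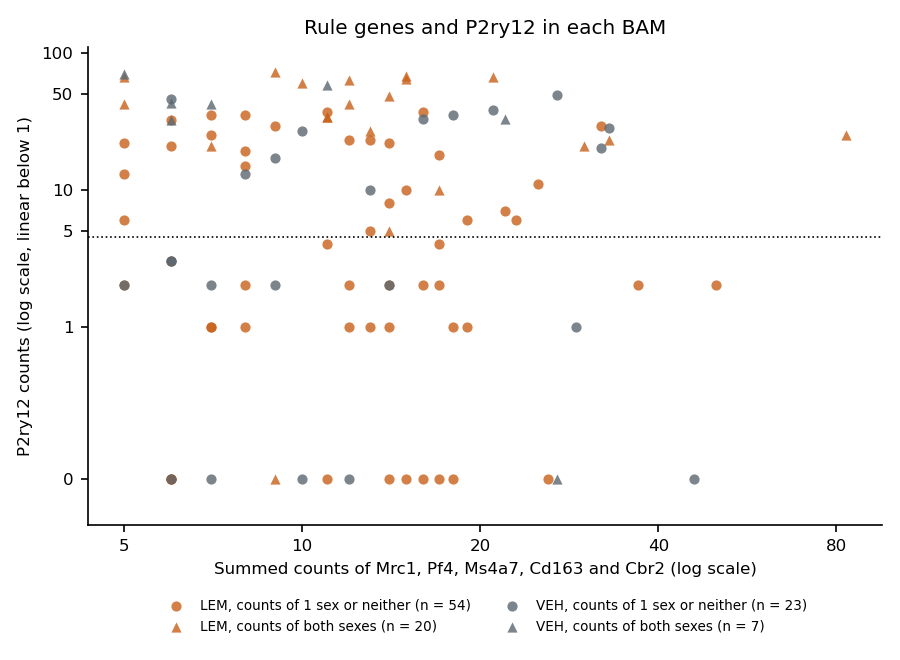
Each point is 1 of the 104 BAMs, with its summed counts of the 5 rule genes on the x axis (log scale) and its P2ry12 counts on the y axis (log scale, linear below 1), coloured by library, with triangles for cells holding both Xist and Y-linked counts. The dotted line parts 43 BAMs with under 5 P2ry12 counts from 61 with 5 or more, and 25 of the 27 triangles sit above it.

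Over these 3 P2ry12 classes, with both libraries summed, levels at 5 or more P2ry12 counts were lower for the genes of BAMs named here and higher for those of microglia than in the other classes. Mrc1 was at 1258, 1043 and 520 CPM for 0, 1 to 4 and 5 or more P2ry12 counts, and Ms4a7 at 1231, 874 and 356 CPM. Apoe, the apolipoprotein of lipid transport, was at 51712, 38564 and 17746 CPM. In the other direction Sparc, a secreted matrix protein, was at 132, 299 and 2084 CPM, and Sall1, the transcription factor of microglial identity, at 13.2, 7.67 and 196 CPM, of which the first and the second value are 1 count each. C1qa, a chain of complement C1q, was at 9453, 8681 and 8458 CPM. The median rule sum was 12 in each class while depth differed, and the part of depth and of the count minimum of the rule in these levels was not tested. Whether the 61 droplets with 5 or more P2ry12 counts held 1 cell was not tested. Because depth differs between the classes and P2ry12 counts rise with depth, the classes are ranges and not cell types.

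**Figure D2:**
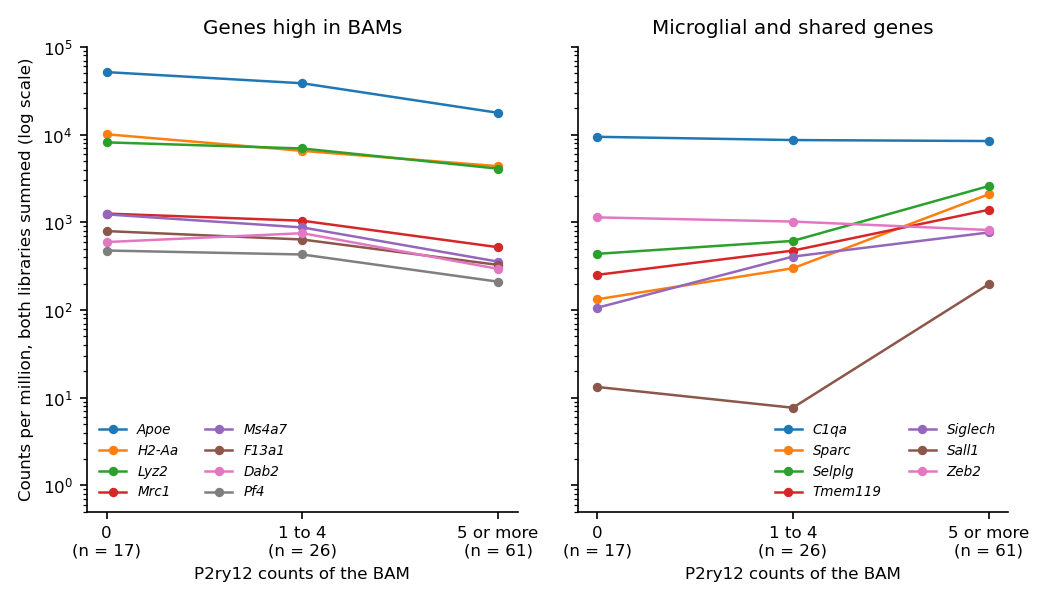
CPM of summed counts (y axis, log scale) in BAMs with 0, 1 to 4 and 5 or more P2ry12 counts (x axis; 17, 26 and 61 cells, both libraries together), for genes high in BAMs on the left and for microglial and shared genes on the right. Mrc1 goes from 1258 to 520 CPM and Sparc from 132 to 2084 CPM, while C1qa stays between 8458 and 9453 CPM.

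Across 15795 genes with at least 20 counts over BAMs and comparison cells in each library, 583 were at least 2-fold higher in BAMs in both libraries (3.69%) and 158 at least 2-fold lower (1%). Without the cells with counts of both sexes, 649 were higher, 477 of them among the 583, and 290 lower, 74 of them among the 158. Over all of them the middle log2 ratio was -0.29 in VEH and -0.20 in LEM. Since these same cells were selected on 5 of the genes, the ratios describe the BAMs and test nothing. With the further condition that both counting intervals leave out 0, 322 were higher (2.04%) and 61 lower (0.386%).

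Among genes with at least 20 counts in the BAMs of each library, the 20 highest relative to comparison cells were the 5 of the rule and 15 others. Outside the rule, the leading gene was Cd93, a C-type lectin-like receptor, at 72.0 CPM in VEH and 87.3 CPM in LEM BAMs against 0.0347 and 0.0503 CPM. Ms4a4a, which lies near Ms4a7 on chromosome 19, was at 75.7 and 175 CPM against 0.0607 and 0.101 CPM. Clec12a, an inhibitory lectin receptor, was at 155 and 128 CPM against 0.147 and 0.157 CPM. All 3 were thus nearly absent from the comparison cells of both libraries. Mgl2, a galactose-binding lectin, was at 267 and 248 CPM against 0.139 and 0.371 CPM. F13a1, coagulation factor XIII A, was at 267 and 471 CPM against 0.546 and 0.408 CPM. The rest of the 20 were the rule genes and Aoah, H2-Eb1, Plbd1, H2-Aa, Cybb, Ccr1, H2-Ab1, Trps1, Ifitm2 and Dab2. Their log2 ratios, taken in the library nearer to 0, ran from 11.57 for Cd163, a lower bound set at 3 counts over the VEH comparison cells, to 6.27 for Dab2, an adaptor of endocytosis. Clec10a, Cd36 and Ciita, whose levels are given with their groups, had larger ratios than Dab2 on fewer than 20 counts in the BAMs of at least 1 library.

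**Figure D3:**
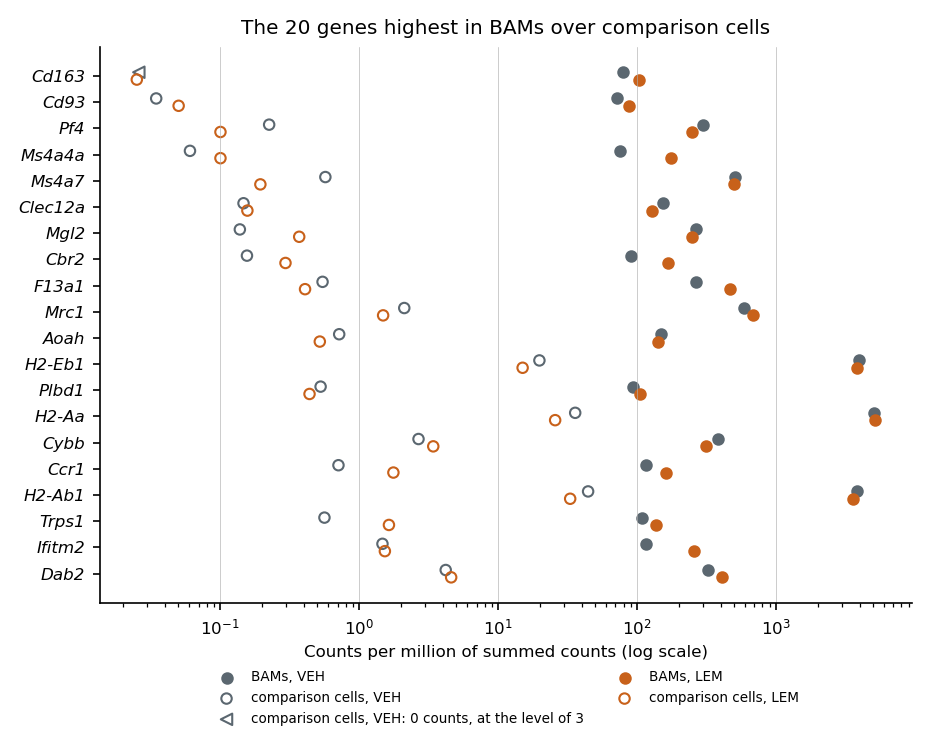
CPM (x axis, log scale) of the 20 genes highest in BAMs over comparison cells (y axis) among those with at least 20 counts in the BAMs of each library, with BAMs as filled and comparison cells as open points, VEH in grey and LEM in orange. For Dab2, the last of the 20, BAMs stood at 324 and 410 CPM and comparison cells at 4.20 and 4.60 CPM, and the triangle marks the 0 counts of Cd163 in VEH comparison cells, drawn at the level of 3 counts.

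The 30 and 74 BAMs supplied much of these transcripts in each library. BAMs gave 74.8% of all Pf4 counts in VEH and 90.9% in LEM, 61.8% and 89.9% of Ms4a7, and 39.6% and 64.5% of Mrc1. H2-Aa counts came from BAMs to 23.1% and 42.6%, and Cd74 counts to 10.8% and 21.8%. For Lyz2, lysozyme, the shares were 2.05% and 5.36%. Beside the 0.239% and 0.399% of all counts that BAMs hold, the class II genes and Lyz2 had larger shares in them and P2ry12, at 0.122% and 0.200%, a smaller one. The shares of Pf4, Ms4a7 and Mrc1 were set by the rule, which summed these genes.

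Among 32 known BAM genes outside the rule, 23 had enough counts and 15 were at least 2-fold higher in both libraries, with 0 lower (3.69% and 1% of all genes tested). The count minimum summed BAMs and comparison cells, so genes rare in comparison cells could pass through their BAM counts. Ms4a4a passed in VEH on 21 BAM and 7 comparison counts, and Mgl2 on 74 and 16. F13a1 and Dab2 had enough in VEH comparison cells alone, at 63 and 485 counts. The part of this minimum in the 15 to 0, and in the lists that follow, was not tested. The list's median log2 ratio was 2.29 in VEH and 2.59 in LEM. Besides F13a1, Mgl2, Ms4a4a and Dab2, it held Clec10a, a second galactose-type lectin, at 50.4 and 34.3 CPM against 0.0867 and 0.0943 CPM. Folr2, a folate receptor, was at 54.0 and 79.5 CPM against 11.5 and 11.5 CPM. Lyve1, a hyaluronan receptor of perivascular and meningeal macrophages, had too few counts for this comparison. It held 8 VEH and 13 LEM counts, spread over 8 BAMs, and every Lyve1 count of both libraries lay in a BAM. Timd4, which binds phosphatidylserine, had 1 and 9 counts, and Cd209b 2 and 10.

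Scavenger and endocytic receptors showed the same direction, with 11 of 16 tested genes at least 2-fold higher (3.69% of all genes) and 0 lower (1%), and medians of 1.92 and 2.27. Cd36, which binds lipoproteins, was at 50.4 and 26.5 CPM against 0.390 and 0.295 CPM. Msr1, the class A scavenger receptor, was at 43.2 and 53.0 CPM against 1.39 and 2.12 CPM. Stab1, a clearance receptor that microglia share, was only moderately higher, at 303 and 413 CPM against 114 and 123 CPM. Marco, another scavenger receptor, had 0 counts in all 104 BAMs, which allows up to 10.8 CPM in VEH and 4.67 CPM in LEM at 3 counts.

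Of 24 microglial identity genes, 4 were at least 2-fold lower in BAMs of both libraries (1% of all genes) and 0 higher (3.69%), with medians of -0.86 and -0.84. Sall1 was at 162 and 151 CPM against 336 and 345 CPM. Sparc was at 1632 and 1688 CPM against 3413 and 3536 CPM. The others were Crybb1, a crystallin, and Serpine2, a serine protease inhibitor. Most genes of the list differed by less than 2-fold, such as Tmem119, a microglial membrane protein, at 1124 and 1183 CPM against 2059 and 2090 CPM, and Cx3cr1, the fractalkine receptor, at 2266 and 2200 CPM against 3117 and 3072 CPM. Droplets with at least 100 Ttr counts, whose epithelial cells should lack these transcripts, held Sparc at 2222 and 2005 CPM, Sall1 at 209 and 171 CPM and Tmem119 at 1294 and 1032 CPM. The levels of these 3 genes in BAMs were thus lower than in comparison cells and near those of such droplets. Of the 192 droplets, 132 held P2ry12 and so were also comparison cells. Whether a microglial cell was in them was not tested, nor was how far the levels in BAMs are expression by BAMs. Among genes of at least 100 CPM in comparison cells, the lowest ratio beside Ttr was that of Adamts1, a secreted protease, at 43.2 and 60.8 CPM against 158 and 211 CPM. Next to it in the list of 15 stood Nhs, Zfp69, Upk1b, Parvg, Gm35188, Nav3, Csmd3, Zswim4, Cacnb2 and Ldhb, beside Sparc, Serpine2 and Sall1.

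MHC class II genes, which the rule did not use, were abundant in BAMs. Cd74, the invariant chain, stood at 11802 CPM in VEH and 13257 CPM in LEM BAMs, against 216 and 185 CPM in comparison cells. H2-Aa, an alpha chain, stood at 5083 and 5173 CPM against 35.9 and 25.8 CPM. H2-Eb1, a beta chain, stood at 3970 and 3813 CPM against 19.9 and 15.03 CPM. Of 14 genes of class II presentation, 9 were at least 2-fold higher in both libraries (3.69% of all genes) and 0 lower (1%). These included Ciita, the transactivator of class II transcription, at 32.4 and 42.1 CPM against 0.364 and 0.465 CPM. H2-DMb2, a chain of the peptide exchange factor H2-DM, was at 184 and 190 CPM against 5.66 and 4.41 CPM.

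The class II genes lie side by side on chromosome 17 of GRCm38, H2-Ab1 at 34257689 to 34269419, H2-Aa at 34282744 to 34287823 and H2-Eb1 at 34305867 to 34316674. Class II promoters are known for an X box, bound by the RFX complex, followed by a Y box with the letters ATTGG, bound by NF-Y, over which CIITA is recruited. The 250 bases before the start of H2-Aa (chr17:34287824-34288073, minus strand) and of H2-Eb1 (chr17:34305617-34305866, plus strand), both upstream of the first exon and credited to RefSeq on GRCm38.p6, are shown because both genes are among those 20 genes highest in BAMs. H2-Ab1, also among those 20, had no entry in the promoter source used and is not shown. In the GENCODE annotation no gene spans the first window, and the antisense gene Gm20513 spans the second. Capitals mark ATTGG on either strand, read as CCAAT where it is on the other one, and GCAACT, letters found in the X box of both.
H2-Aa: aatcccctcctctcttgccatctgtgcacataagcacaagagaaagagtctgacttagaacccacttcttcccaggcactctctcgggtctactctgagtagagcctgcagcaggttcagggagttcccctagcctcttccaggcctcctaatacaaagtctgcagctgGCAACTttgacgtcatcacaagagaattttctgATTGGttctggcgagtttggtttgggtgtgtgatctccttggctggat
H2-Eb1: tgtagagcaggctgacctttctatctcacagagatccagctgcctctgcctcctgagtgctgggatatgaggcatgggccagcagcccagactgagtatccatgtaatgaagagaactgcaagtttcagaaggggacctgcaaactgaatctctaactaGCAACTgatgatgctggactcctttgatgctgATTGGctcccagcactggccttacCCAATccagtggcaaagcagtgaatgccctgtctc
In H2-Aa the marked X box letters and the marked Y box letters after them are parted by 27 bases and in H2-Eb1 by 26 bases, with the X box letters beginning 81 and 91 bases before the start. Over 32851 mouse promoters of the same length, 33.8% held the 5 Y box letters and 9.01% the 6 X box letters on either strand, and 72 (0.219%) held the X box letters followed after 15 to 35 bases by those of the Y box. The X box letters were chosen after these promoters had been read, and a match is a description of letters, not of binding.

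The share of a BAM's counts from H2-Aa, H2-Ab1, H2-Eb1 and Cd74 together varied widely between cells. It ran from 0 to 10.1% in VEH BAMs, with a median of 2.47%, and from 0 to 10.9% in LEM BAMs, with a median of 2.91%. It was at least 1% in 64 of 104 BAMs (61.5%, 51.5 to 70.9), under 0.1% in 27 and in between in 13, so few cells lay in the middle. Without the cells with counts of both sexes, 63.6% (51.9 to 74.3) reached 1%. By contrast only 77 VEH and 70 LEM comparison cells reached 1%, or 0.425% and 0.292% of them.

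**Figure D4:**
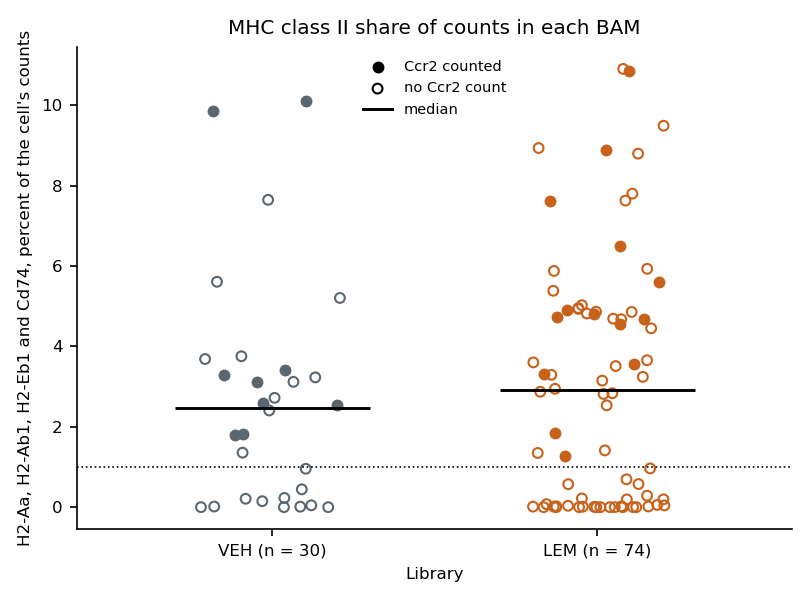
Share of each BAM's counts that came from H2-Aa, H2-Ab1, H2-Eb1 and Cd74 (y axis, percent) in the VEH and LEM libraries (x axis), with filled points for cells holding a Ccr2 count, bars for the medians of 2.47% and 2.91%, and a dotted line at 1%. All 23 filled points lie above the line.

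When the BAMs were parted at the median class II share over all of them, 2.77%, 12 of 30 VEH BAMs (40%, 22.7 to 59.4) and 40 of 74 LEM BAMs (54.1%, 42.1 to 65.7) were above it, and the intervals overlap. This line parts a range and not types, and 14 BAMs lay within 0.5 percentage points of it. The cells above it held more Ccr2, the chemokine receptor of monocytes, at 143 CPM against 19.5 CPM below it, both libraries together. Mgl2 was at 370 against 162 CPM. Both were higher above the line in each library. Cd163 differed in direction between the libraries, at 99.7 above against 67.7 CPM below the line in VEH and at 26.2 against 172 CPM in LEM. Lyve1 was at 2.46 against 38.9 CPM, both libraries together, a value that rests on 8 cells. Counted by cells, Ccr2 was found in 23 BAMs, all of them with at least 1% class II, and Lyve1 in 8, of which 1 had that much. Mgl2 was counted in 44 BAMs, of which 36 reached 1%, and Cd163 in 32, of which 16 did. Ccr2 also went with the rule sum. The 42 BAMs with a sum of 10 or less held 60 of the 68 Ccr2 counts, and the 62 BAMs above 10 held 8, or 167 against 14.3 CPM. At least 1% class II was reached by 33 of the 42 and by 31 of the 62. Cells near the limit of the rule thus carried most of the Ccr2 and more often had class II. The lower group held all 5 called doublets and 18 of 52 cells (34.6%) with genes of both sexes, against 9 of 52 (17.3%) above the line, and its cells were deeper, with a median of 9642 counts against 6772.

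Lipid and lysosomal genes of BAMs were led by Apoe, at 23301 and 23571 CPM against 1360 and 2050 CPM. Pltp, the phospholipid transfer protein, was at 93.7 and 285 CPM against 2.43 and 3.78 CPM. Lyz2 was at 2940 and 5653 CPM against 336 and 400 CPM, and reads of its near-identical copy Lyz1 may be split between them. Of 27 genes tested in this list, 5 were at least 2-fold higher and 0 lower, against 3.69% and 1% of all genes, the others being Plin2, which coats lipid droplets, and Ctsc, cathepsin C. Among the 17 tested genes of disease-associated microglia (DAM), 6 were at least 2-fold higher and 0 lower, beside the same background. They were Apoe, Axl, Igf1, Ch25h, Lgals3 and Spp1, and 32 of the 41 Spp1 counts of LEM BAMs came from 1 cell. Cst7, a cystatin of DAM, was at 7.20 and 65.4 CPM against 110 and 91.2 CPM, and Gpnmb, a DAM glycoprotein, had 0 counts in BAMs. The DAM list thus did not move as one in BAMs.

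Of 20 interferon response genes, 8 were at least 2-fold higher in BAMs and 0 lower, against 3.69% and 1% of all genes, which is also the background of the counts that follow. Ifitm2 and Ifitm3, membrane proteins that restrict viral entry, led them. Ifitm2 was at 115 and 257 CPM against 1.47 and 1.53 CPM, and Ifitm3 at 508 and 511 CPM against 31.7 and 46.3 CPM. Bst2, tetherin, was at 706 and 558 CPM against 138 and 149 CPM. Of 20 chemokine and cytokine genes, 4 were higher and 0 lower. Ccl12, a chemokine that draws monocytes, was the most abundant of them, at 962 and 737 CPM against 271 and 268 CPM. Ccl7 was at 50.4 and 117 CPM against 5.23 and 3.73 CPM, and Cxcl2, which draws neutrophils, at 90.1 and 24.9 CPM against 0.113 and 0.427 CPM, counted in only 3 VEH and 4 LEM BAMs. Cxcl16, a membrane-bound chemokine, completed the list. Ccl8, which also draws monocytes, had too few counts in VEH for this comparison, with 9 VEH and 66 LEM counts in BAMs.

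Other groups differed less. Of 14 complement genes, C4b and Cfp, properdin, were at least 2-fold higher, and C1qa, C1qb and C1qc were within 0.05 of 0 on the log2 scale in both libraries. Of 16 growth factor and matrix genes, Igf1, Spp1, Mmp14 and Pdgfc were higher. Of 13 iron and haem genes, Cp, ceruloplasmin, Steap3 and Blvrb were higher, with Cp at 86.5 and 54.5 CPM against 4.22 and 4.76 CPM. Among 24 macrophage transcription factors, Bhlhe40 and Irf4 were higher, on 6 and 12 counts in BAMs, and Sall1 lower. No gene passed 2-fold in both libraries among 20 immediate early and dissociation genes, 13 proliferation genes or 15 growth factor and Fc receptors. The orexin receptor genes Hcrtr1 and Hcrtr2 and the precursor gene Hcrt had 0 counts in the 104 BAMs, which at 3 counts allows up to 3.26 CPM over both libraries.

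Markers of other cells were at 0 in differing parts of each list. Of all 32285 genes, only 11066 had at least 1 count in BAMs and in comparison cells of both libraries. A count of 0 was thus common among all genes, and the share of them at 0 in every BAM was not counted. All 8 neutrophil markers, all 10 mural cell and fibroblast markers, 10 of 11 choroid plexus markers in the table, 9 of 12 lymphocyte markers, 7 of 11 markers of oligodendrocytes and neurons and 3 of 7 endothelial markers had 0 counts in all BAMs. Of 7 astrocyte markers 1 was at 0, and Slc1a2, a glutamate transporter, was above 2-fold on 6 counts. Among 10 dendritic cell markers Clec9a, Xcr1, Ccr7 and Ccl22 were at 0 and Fscn1, an actin-bundling protein that microglia also express, was lower. Cd209a, on the same list, had too few counts for this comparison but was present, with 4 VEH and 30 LEM counts in 10 BAMs. Of these 10 BAMs, 7 had at least 1% class II. Among the monocyte markers Ly6c2, Fn1, Vcan and Ace were at 0, while Ccr2, mostly in BAMs of low rule sum, was at 93.7 and 65.4 CPM against 4.51 and 4.63 CPM and Ms4a4c at 50.4 and 35.8 CPM against 2.23 and 3.27 CPM. The summed monocyte list was at 148 and 139 CPM in BAMs against 13.6 and 16.9 CPM, and most of the sum in BAMs was Ccr2 and Ms4a4c. These were the 2 of 7 tested genes of the list that were at least 2-fold higher, with 0 lower. Of the 10 listed, 5 had 0 counts in all BAMs. The list's median log2 ratio was -0.63 in LEM and had no finite value in VEH. Ly6c2, the defining marker of classical monocytes, was thus not seen, while Ccr2 was.

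BAMs made up 0.163% of VEH cells (0.110 to 0.233) and 0.303% of LEM cells (0.238 to 0.381). The log2 ratio of the shares was 0.89 (0.26 to 1.56). Within female cells, called by Xist and Y-linked counts, the shares were 0.123% (7 cells) and 0.226% (19 cells), a log2 ratio of 0.88 (-0.44 to 2.37). Within male cells they were 0.155% (14 cells) and 0.258% (29 cells), a log2 ratio of 0.74 (-0.23 to 1.77). The share was thus higher in LEM in each sex, but within a sex the counting intervals held 0. Among BAMs with under 5 P2ry12 counts, 13 VEH and 30 LEM cells, the log2 ratio was 0.80 (-0.18 to 1.86), and without cells with genes of both sexes it was 0.85 (0.12 to 1.62). Counting also the cells that reached 5 counts through 1 gene alone gave 0.61 (0.02 to 1.22). The CD45lo gate and the dissection apply to both libraries, and a difference in either cannot be told apart from one in the mice. Droplets with at least 100 Ttr counts, which mark carried-over choroid plexus, also numbered more in LEM (143 against 49), and their part in the share of BAMs was not tested. More rule gene counts lay outside BAMs in VEH. BAMs held 61.8% of Ms4a7 counts in VEH and 89.9% in LEM, 39.6% and 64.5% of Mrc1, 74.8% and 90.9% of Pf4 and 55.6% and 69.7% of Cbr2. Cd163 went the other way, at 100% and 91.7%. The part of these outside counts in the ratio of shares was not tested.

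Most genes in BAMs differed by less than 2-fold between LEM and VEH. Over 2261 genes with at least 50 counts in the BAMs of 1 library or the other, LEM over VEH had a median log2 value of 0.03, and of 0.01 for these genes in comparison cells. Past 2-fold were 36 genes higher in LEM (1.59%) and 3 lower (0.133%). Without the cells with counts of both sexes 14 were higher, 3 of them among the 36, and 4 lower. These counts rest on 30 VEH cells and describe 2 libraries. LEM BAMs held 641771 counts in sum and VEH BAMs 277587, so a gene could reach 50 counts through LEM alone more easily. The part of that minimum in the balance of 36 to 3 was not tested. At minimums of 20 and 100 counts, 253 and 9 genes were higher and 33 and 2 lower. Of the 5 rule genes 0 passed 2-fold, with Mrc1 at 0.22 (-0.04 to 0.49) and Pf4 at -0.27 (-0.66 to 0.13). Cbr2 had the ratio farthest from 0 of the 5, at 0.90 (0.26 to 1.59), and stood at 1.24 (0.50 to 2.05) without the BAM richest in it in each library. In comparison cells Cbr2 was at 0.92 (0.11 to 1.79), near its value in BAMs. The other rule genes were there at -0.51 for Mrc1, -1.16 for Pf4, -1.55 for Ms4a7 and -0.05 for Cd163. All 5 also chose the cells.

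Lyz2, the lysozyme of macrophages, was higher in LEM BAMs and in every subset of them examined. Per 10000 counts of a cell, its values ran from 4.79 to 98.5 in VEH BAMs with a median of 20.8, and from 0 to 218 in LEM BAMs with a median of 48.8, so the ranges overlap and the LEM cells sit higher. The log2 ratio of CPM was 0.94 (0.83 to 1.05), against 0.25 in comparison cells. It was 0.55 in female and 1.30 in male BAMs, 0.92 below and 0.93 at or above 5 P2ry12 counts, and 0.83 above and 1.02 below the class II median, so every one of these subsets lay above 0. Without the cells with genes of both sexes it was 1.11. This ratio was not among the 10 largest and was chosen after its values had been seen.

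Pltp was counted in 9 of 30 VEH BAMs and 52 of 74 LEM BAMs. Its log2 ratio was 1.61 (1.01 to 2.26), and 0.64 in comparison cells. Without cells with genes of both sexes it was 1.34 (0.69 to 2.05). Droplets with at least 100 Ttr counts held Pltp at 284 CPM in VEH and 510 CPM in LEM, above the BAMs of the same library, and numbered 49 in VEH and 143 in LEM. All BAMs had 0 Ttr counts, and the part of free RNA of such droplets in the Pltp ratio was not tested. Within female BAMs it was 0.89 (-0.06 to 1.97) and within male BAMs 1.46 (0.54 to 2.502). Both sexes thus leaned the same way, with an interval that held 0 in females. The largest ratio was that of Cd209f, a C-type lectin, at 3.68 (2.09 to 5.99), on 3 VEH and 89 LEM counts, of which 49 lay in 1 cell. It belongs to a family of near-identical genes, between which reads can be split. Crip1, a zinc-binding LIM protein, was at 1.91 (1.04 to 2.90), with 52 of 104 LEM counts in 1 cell and 1.32 without the BAM richest in it in each library, against -0.36 in comparison cells. Within female BAMs alone it was -0.35, and without cells with genes of both sexes 1.09 (0.02 to 2.32). Cd209f was at 0.49 (-1.90 to 3.80) in BAMs with under 5 P2ry12 counts and at 2.39 (0.71 to 4.74) without cells with genes of both sexes. Ccl8 was at 1.67 (0.65 to 2.86), on 3 VEH and 9 LEM cells, at -1.07 within females and at 0.61 (-0.52 to 1.88) without cells with genes of both sexes. The ratios of Cd209f, counted in 2 VEH and 6 LEM BAMs, and of Ccl8 hence rest on few cells. Crip1 was counted in 9 VEH and 32 LEM BAMs.

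The rest of the 10 largest ratios were those of Rgl2, a Ral exchange factor, Glg1, a Golgi glycoprotein, Clec4a1, a lectin receptor, Spata13, B3galnt1, a glycosyltransferase, and Slc38a10, an amino acid transporter. They ran from 1.58 for Rgl2 to 1.46 for Slc38a10, and each rested on 8 to 12 VEH counts. Like Cd209f, Crip1, Ccl8 and Pltp, these 6 genes reached the count minimum in LEM BAMs only. All 10 were picked for a large ratio whose interval left out 0, so their ratios and intervals are those of chosen genes. The part of the minimum and of this choice in the size of the ratios was not tested. B3galnt1 was at 0.098 within female BAMs, Clec4a1 at 0.43 within male BAMs, Glg1 at 0.49 with under 5 P2ry12 counts and Spata13 at 0.42 by the mean over cells of counts per 10000. Comparison cells were between -0.07 and 0.53 for these 6 genes. Other BAM genes above 0 were F13a1, at 0.82 (0.45 to 1.21), Ms4a4a, at 1.21 (0.53 to 1.95), and Ifitm2, at 1.16 (0.60 to 1.75), against -0.42, 0.73 and 0.06 in comparison cells. F13a1 was at -0.24 (-0.88 to 0.42) within female BAMs, at 0.21 (-0.32 to 0.76) above the class II median and at 0.52 (0.13 to 0.93) without cells with genes of both sexes. Ms4a4a was at 0.31 (-0.56 to 1.28) above the class II median, and Ifitm2 at 0.67 (-0.10 to 1.49) within male BAMs. Of these 3 genes, F13a1 thus changed sign in 1 sex.

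**Figure D5:**
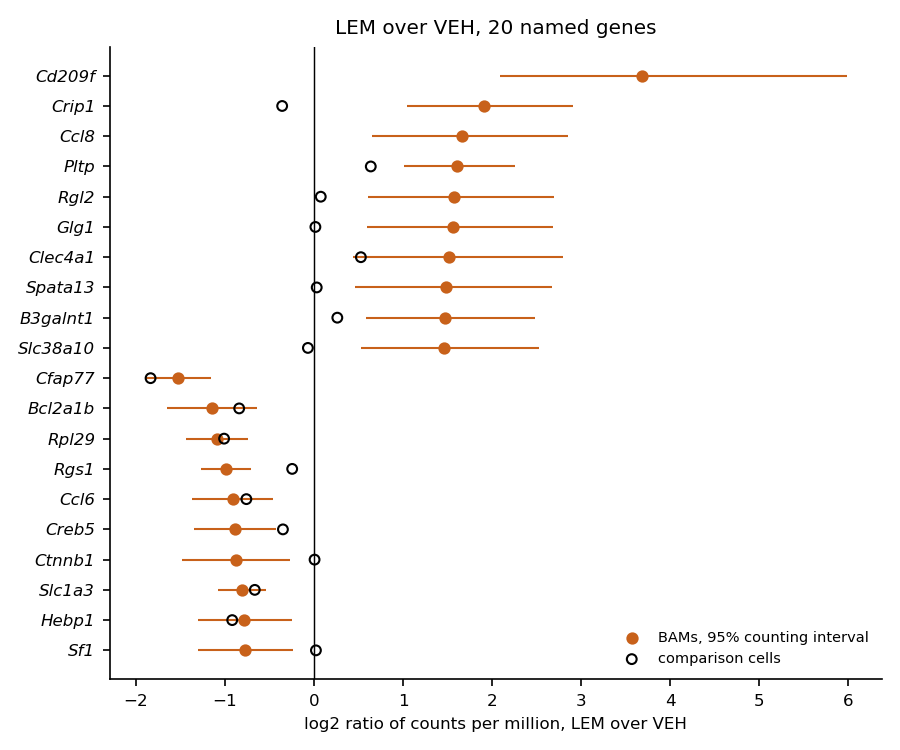
Log2 ratio of CPM, LEM over VEH (x axis), for the 10 largest and 10 smallest ratios within BAMs named by the rule (y axis), with filled points and lines for BAMs and their 95% counting intervals and open circles for comparison cells. For Clec4a1, Cfap77, Bcl2a1b, Rpl29, Ccl6, Slc1a3 and Hebp1 the comparison cells lie within the BAM interval, and for Cd209f and Ccl8 there is no value in comparison cells.

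On the lower side, most genes had low ratios in comparison cells as well. Cfap77, a ciliary protein gene, was at -1.53 (-1.90 to -1.16) in BAMs and -1.84 in comparison cells. Rpl29, a ribosomal protein with many pseudogenes, was at -1.09 (-1.43 to -0.74) and -1.01. Bcl2a1b, an anti-apoptotic gene with near-identical copies, was at -1.14 (-1.65 to -0.64) and -0.84. These 3, the only ones past 2-fold, were thus differences of the libraries that BAMs and comparison cells shared. Rgs1, a regulator of G-protein signalling, was at -0.99 (-1.27 to -0.70) in BAMs and -0.24 in comparison cells, but at -0.03 (-0.49 to 0.44) within male BAMs, at -0.17 (-0.67 to 0.34) above the class II median and at -0.69 (-1.06 to -0.32) without cells with genes of both sexes. In other subsets Rgs1 was farther from 0, at -1.79 (-2.37 to -1.22) with under 5 P2ry12 counts, at -1.47 (-1.84 to -1.10) below the class II median and at -1.71 by the mean over cells of counts per 10000. Creb5, a transcription factor, was at -0.89 and -0.35, and at -0.13 (-1.21 to 1.04) in BAMs with under 5 P2ry12 counts. Ctnnb1, beta-catenin, was at -0.88 (-1.49 to -0.27) and 0.01, and Sf1, a splicing factor, at -0.77 (-1.30 to -0.24) and 0.02. Sf1 was at -0.0016 (-1.56 to 1.83) within female BAMs. For Rgs1, Creb5, Ctnnb1 and Sf1 the interval over all BAMs left out the value of comparison cells. Ccl6, Slc1a3 and Hebp1, at -0.91, -0.81 and -0.78, lay near their values in comparison cells of -0.76, -0.66 and -0.92. Slc1a3 was at 0.32 within female and -1.61 within male BAMs, and at -1.18 without cells with genes of both sexes. With under 5 P2ry12 counts Ccl6 was at 0.37 and Hebp1 at -0.067.

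Apoe and class II genes had other ratios in BAMs than in comparison cells. Apoe in BAMs had a log2 ratio of 0.02 (-0.03 to 0.06), against 0.59 in comparison cells. Within male BAMs it was 0.58 and within female BAMs -0.06. Without the cells with genes of both sexes it was 0.32 (0.27 to 0.37). Above the class II median it was 0.58 and below it -0.20, so the value over all BAMs joins subsets of opposite sign. H2-Aa was at 0.03 (-0.06 to 0.12) and Cd74 at 0.17 (0.11 to 0.23), against -0.48 and -0.23 in comparison cells. Without the cells with genes of both sexes, H2-Aa was at 0.33 (0.23 to 0.44) and Cd74 at 0.45 (0.38 to 0.51). Cd74 was at 0.89 (0.80 to 0.98) within male BAMs and -0.38 (-0.49 to -0.26) within female BAMs, where VEH had 7 cells. The direction for Cd74 thus differed between the sexes, over few cells each, and this difference was not tested.

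Proliferation genes had counts in VEH BAMs at 339 CPM in sum and in LEM BAMs at 62.3 CPM, against 170 and 169 CPM in comparison cells. Top2a, a topoisomerase of dividing cells, had 10 counts in VEH BAMs, 9 of them in 1 cell, and 0 in LEM BAMs. The VEH level of Top2a was thus that of 1 cell.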

How the data were processed

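Reads of 10x 5′ libraries were aligned and counted by the authors in Cell Ranger 8.0.0 (mm10), who named SoupX for ambient RNA and filtered cells on genes, counts and mitochondrial share. Each deposited value is a count without decimals of 1 gene in 1 cell (32285 genes). Whether they include the SoupX correction is not given in the sources used here, so free RNA was not corrected further. Cell names carry the treatment, with 0 unmatched columns, and serial numbers in place of barcodes, so barcodes shared by the libraries were not counted.

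Counts were summed over cells and given as CPM, with exact conditional binomial intervals for ratios and Clopper-Pearson intervals for shares (95%, counting error only). A count of 0 was bounded at 3 counts. Genes with at least 20 counts (BAMs over comparison cells, in each library) or 50 counts (LEM over VEH, in either library) were described, and called at 2-fold. Named were the rule genes, leading list members, the 20 highest genes in BAMs (at least 20 counts in the BAMs of each library), the 15 lowest (at least 100 CPM in comparison cells) and the 10 largest and smallest LEM over VEH ratios with an interval without 0 and the same sign without the richest BAM of each library. Members and lists were chosen with earlier results of these data known. Cells were thinned to 2000 counts for shares. Scrublet's automatic threshold called 0 VEH and 3113 LEM cells and so had not worked for VEH. Cells above the 90th percentile of each library's scores were called instead (1807 and 2402) and kept. Only the step that forms ratios and their intervals was tested on simulated data, drawn without differences between cells. Alternatives were other rule limits, each sex, no doublets, no cells with both sexes' genes, thinned cells, few P2ry12 counts, per-cell means, other minimums and no richest BAM. Gene positions are from the GENCODE annotation of GRCm38. Software was scanpy 1.11.5, scipy 1.17.1, matplotlib 3.10.9, numpy 2.4.6 and pandas 2.3.3 in Python 3.11.15. Some results that the naming rule would give are not reported here.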

Additional observations from a re-analysis of the deposited data

Results flagged for a closer look

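Several LEM over VEH log2 ratios of BAMs pointed the opposite way from those of another set of cells, with counting intervals that left out 0 on both sides, among 35 genes looked at. None of these differences was tested, since each rests on 1 library per treatment. Crip1 was 1.91 within BAMs, with 52 of 104 LEM counts in 1 cell, and -0.36 within comparison cells. Slc38a10 was 1.46 and -0.068, Cd74 was 0.17 and -0.23, and Ccl7 was 1.21 and -0.49. Of the 14 Ccl7 counts of VEH BAMs 10 lay in 1 cell, and the BAM ratio was -2.77 (-4.88 to -1.02) at under 5 P2ry12 counts, 3.39 at 5 or more, and 0.52 (-0.42 to 1.55) without cells with genes of both sexes, while female BAMs had 0 counts of it. Between the sexes, Cd74 was -0.38 within female and 0.89 within male BAMs, and H2-Aa was -0.22 and 0.69. The female ratios rest on 7 VEH and 19 LEM cells and the male ratios on 14 and 29.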

How the results depend on the processing

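The share of BAMs was higher in LEM under all 11 alternatives run on these same 2 libraries, with log2 ratios from 0.61 to 1.21. All 11 drew on the same 5 rule genes, and the part of rule gene counts outside BAMs was not tested. A Ttr limit of 10 could not change it, since all BAMs had 0 Ttr counts. Intervals held 0 in female cells (from -0.44), male cells (from -0.23) and BAMs with under 5 P2ry12 counts (from -0.18). Genes at least 2-fold higher in BAMs numbered 583, and 322 when both intervals also had to leave out 0. Similar numbers could hold other genes. Among the 583 were 191 of 513 after thinning, 232 of 452 in female cells and 349 of 643 at under 5 P2ry12 counts. Without called doublets, 532 of 588 were. The 158 lower genes became 257 in male cells, 290 without cells with genes of both sexes, 388 in BAMs with under 5 P2ry12 counts, 441 by the mean over cells of counts per 10000, and 61 with intervals. Only 29 of the 158 were among the 388, and 74 among the 290. In place of 36 genes higher in LEM there were 13 in females, 14 in males, 14 without cells with genes of both sexes and 10 at under 5 P2ry12 counts, of which 2, 2, 3 and 3 were among the 36, then 1 after thinning, which was not among them, 64 by the mean per 10000, 253 at 20 counts or more, 9 at 100 or more, and 72 without the richest BAM of each library. The 3 lower genes became 5 at a rule sum of 10, 6 with at least 3 rule genes, 7 in males, 0 after thinning (124 genes left), 11 by the mean per 10000 and 33 at 20 counts. BAMs with 5 or more P2ry12 counts were 46.8% without cells with genes of both sexes, instead of 58.7%. Reversed were Crip1 (-0.35), Ccl8 (-1.07) and Slc1a3 (0.32) in female BAMs and Ccl6 (0.37) at under 5 P2ry12 counts. Of 138 alternative values of the 20 named ratios, 111 stayed within their interval. Apart from fewer cells and genes, the cause was not tested. Chosen after seeing the data were the alternatives without cells with genes of both sexes and with intervals, and, for the share, at least 1 rule gene (0.61) and under 5 P2ry12 counts (0.80), the last also for class II. No paired analysis was possible because each treatment has 1 library.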
